A study of Rattus norvegicus with 48 samples.

Results

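The response of rat cortical cultures to Tat, the transactivator protein of HIV-1, was measured in the presence of 4-octyl itaconate (4OI), a cell-permeable itaconate ester. Of the 48 RNA-seq libraries of the series, the comparison uses 6, the 3 of cultures given 4OI and Tat (Tat-4OI) and the 3 of cultures given 4OI alone, and it covers all genes of the deposited table. Tat-4OI cultures received 250 µM 4OI and 6 ng/mL of Tat 1-86 for 48 h, and 4OI cultures received 250 µM 4OI without Tat. The response to Tat without the compound is given by 3 libraries of cultures with Tat alone (6 ng/mL for 48 h) and 3 of untreated cultures (Control), so the responses with and without 4OI share no library. All cultures came from the brains of 18-day-old Sprague-Dawley rat fetuses and were treated after 21 days in vitro. 4OI was dissolved in DMSO, and the labels name no vehicle for Control, but both arms of the main comparison held the compound. The labels do not say whether the 3 libraries of a group came from separate litters or from wells of a single preparation, and p-values then measure only the spread between these libraries.

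The labels name the cell type as neuron, while the libraries hold RNA of several cell types. In the 4OI and Tat-4OI libraries Map2, a dendrite protein of neurons, was at 526 to 689 CPM (read counts scaled by the authors to the TMM-adjusted size of the library), and Gfap, an astrocyte filament protein, was at 3401 to 5297 CPM. The myeloid markers Csf1r and Aif1 were at 104 to 468 CPM and at 28.7 to 147 CPM. In such bulk samples fewer cells of a type and less RNA per cell cannot be told apart. The 6 libraries held 19 to 27.6 M reads on genes, so that the minimum level for testing, 0.5 CPM, stood for 9.30 to 13.6 reads. Some libraries stood apart from their groups. The 16 myeloid markers summed to 866, 1949 and 901.5 CPM in the 4OI libraries and to 1132, 1831 and 806 CPM in the Tat-4OI libraries, highest in replicate 2 of both groups. Replicate 2 was also highest in Control (1217, 2142 and 1387 CPM) and with Tat alone (2242, 3730 and 2311 CPM). Whether libraries of the same number share a source was not tested. Control replicate 2 stood apart in its interferon-stimulated genes, whose sum was 4587 CPM there against 728 and 1505 CPM in the other 2 Control libraries. Its sums were also highest for chemokines (723 against 361 and 346 CPM) and complement (6733 against 3260 and 3811 CPM). The same held for class I (4127 against 1990 and 2202 CPM) and acute-phase genes (1810 against 947 and 1184 CPM). Its border macrophage sum was the lowest (1151 against 1209 and 1465 CPM). All values of Tat against Control include this library.

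Tat acts on microglia, macrophages and astrocytes, where it is known to switch on NF-κB, the transcription factor that drives acute-phase proteins, chemokines and cytokines. Interferons signal to a separate set of genes with IRF and STAT factors, and class II antigen presentation genes follow the coactivator CIITA. Itaconate is made by the enzyme Acod1 in activated macrophages, and its ester 4OI is known to modify KEAP1, which frees the factor Nrf2 to raise antioxidant genes. The comparison asks how much of the Tat response was left when 4OI was present throughout.

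Under 4OI, Tat raised 188 genes and lowered 184 of the 15609 tested (limma, FDR under 0.05). That is 2.38% of the genes tested, 1.2% in the upward and 1.18% in the downward direction. Without 4OI, Tat changed 2229 genes (14.3%), 1512 upward (9.69%) and 717 downward (4.59%). At an unadjusted p under 0.05 the response under 4OI held 2475 genes. Changes of at least 4-fold were found for 49 rises and 11 falls under 4OI, and for 238 rises and 25 falls without it. The median log2 difference of all genes was 0.01 in both responses. Of the 15609 genes tested, 8017 had positive and 7591 negative values under 4OI, and 7942 and 7667 without it. Counts of signs in the gene lists stand against these. The 3 Tat-4OI libraries lay above all 3 4OI libraries for 15.8% of the genes tested and below them for 13.9%, and for each of the 372 called genes the groups did not overlap. The count of called genes was lower without single libraries, 104 without Tat-4OI replicate 2, 144 without Tat-4OI replicate 3, 116 without 4OI replicate 1 and 126 without 4OI replicate 3, and it was 72 without replicate 2 of both groups.

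The genes that still responded were for the most part genes that responded without the compound. Of the 188 rises, 151 (80.3%) were also called as rises without 4OI, which is 9.99% of the 1512 rises found there. Of the 184 falls, 122 (66.3%) were also called as falls without 4OI, which is 17% of the 717. Genes called in opposite directions numbered 0. The 188 rises had a median log2 change of 1.45 under 4OI and 1.77 without it, and 121 of them had the larger value without 4OI. For the 184 falls the medians were -0.70 under 4OI and -0.61 without it, and 72 of them had the larger fall without 4OI. The 188 rises and the 184 falls were chosen on the response under 4OI, which makes their values there a description. Read from the other side, the 1512 rises without 4OI had a median log2 change of 0.82 there and of 0.31 under 4OI, and 92.1% of them kept a positive value. These genes were chosen on the response without 4OI, which makes their values there a description. 99 genes were called under 4OI and not without it, and for 0 of them did the difference between the responses pass the test in the fit to 21 libraries.

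**Figure D1:**
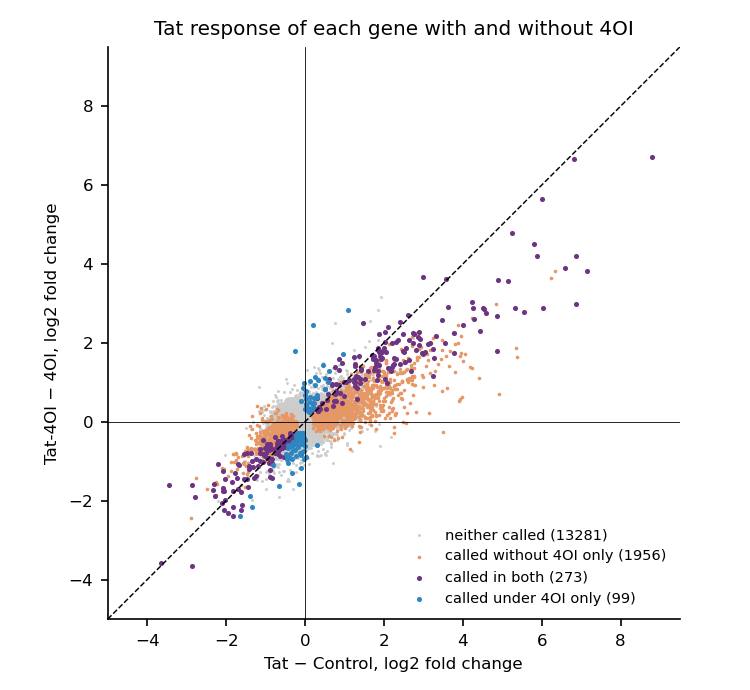
Log2 difference of Tat-4OI against 4OI (vertical axis) plotted against that of Tat against Control (horizontal axis) for the 15609 genes tested, coloured by where the gene was called. Of the called genes 273 were called in both responses, 1956 without 4OI only and 99 under 4OI only. Of the 188 rises under 4OI, which were chosen on that response, 121 had the larger value without it.

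Acute-phase proteins, which are secreted in inflammation, held the largest rises. Of the 13 tested, 5 rose under 4OI and 0 fell, with a median log2 change of 2.24, against 11 rises and a median of 4.29 without 4OI. Orm1, a plasma glycoprotein of the acute phase, was at 0, 0.216 and 0.0834 CPM in the 4OI libraries and at 31.1, 76.2 and 98.5 CPM in the Tat-4OI libraries. The gene went from almost no reads to the range of 31.1 to 98.5 CPM, with no overlap, and the log2 difference was 6.71 (SE 0.70, limma FDR 0.000164). In Tat cultures without the compound Orm1 reached 686, 499 and 298 CPM, above each Tat-4OI library.

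Lcn2 codes for lipocalin 2, an iron-siderophore binding protein that reactive astrocytes secrete. It was at 13, 70.5 and 36.4 CPM under 4OI alone and at 1467, 6461 and 3892 CPM in Tat-4OI, a log2 rise of 6.66 (SE 0.86, limma FDR 0.000784). The rise without 4OI was 6.82, from 94.7, 315 and 33 CPM to 13561, 12755 and 8461 CPM. The level with Tat was lower in Tat-4OI than with Tat alone, without overlap, whereas the starting levels in 4OI and Control overlapped. The 2 rises differed by -0.16 (limma FDR of the difference 0.973). Slpi, a secreted protease inhibitor, was at 0.0368, 0.0862 and 0 CPM and rose to 3.24, 39.7 and 6.06 CPM, with a log2 rise of 4.20 (SE 0.66, limma FDR 0.00316) against 6.86 without 4OI. Ptx3 and Chi3l1, a pentraxin and a chitinase-like protein, rose by 2.89 and 2.60. S100a8, a calcium-binding alarmin, gave 1.30 (limma FDR 0.123). Without single libraries the calls of Ptx3 and Chi3l1 were lost at limma FDR of up to 0.108 and 0.192 (both without Tat-4OI replicate 2), while Orm1, Lcn2 and Slpi stayed called without each of the 6 libraries.

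Chemokines, which recruit leukocytes, were the list with the most rises. Of 22 tested, 7 rose under 4OI and 0 fell, and the median log2 change was 2.14. Without 4OI 18 rose, with a median of 3.50. The 7 were Cxcl9, Ccl5, Cxcl1, Ccl20, Ccl2, Ccl7 and Cxcl13. Cxcl9, an interferon-induced ligand of CXCR3, was at 0, 0.172 and 0.375 CPM under 4OI alone and at 36.1, 23.2 and 41.4 CPM in Tat-4OI (log2 rise 5.64, SE 0.74, limma FDR 0.000812). Ccl5, a chemokine of T cells and monocytes, went from 0.147, 0.216 and 0.125 CPM to 19, 12.2 and 24 CPM, a rise of 4.79 (SE 0.52, limma FDR 0.000164). For Cxcl9 and Ccl5 the rises without 4OI were 6.00 and 5.24, close to those under the compound. These values include Control replicate 2, which had the highest chemokine sum of the Control libraries.

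The neutrophil chemokine Cxcl1 was at 3.83, 2.54 and 6.05 CPM under 4OI alone and at 32, 187 and 89.5 CPM in Tat-4OI. Its log2 rise was 4.21 (SE 0.64, limma FDR 0.00275), against 5.89 without 4OI. Ccl20, the ligand of CCR6, was at 0.184, 0 and 0.0417 CPM and reached 4.66, 13 and 7.1 CPM in Tat-4OI, but 172, 141 and 127 CPM with Tat alone. The levels with Tat did not overlap between cultures with and without 4OI, and the rises were 3.83 (SE 0.56, limma FDR 0.00201) and 7.16. That difference, -3.34, was not called in the 21 libraries (limma FDR 0.16) and was called in a fit to all 48 (limma FDR 0.0298). Ccl2, the main monocyte chemokine, rose from 16.9, 15.2 and 15.4 CPM to 99.7, 386 and 198 CPM (log2 3.60, SE 0.65, limma FDR 0.00676), and the rise without 4OI was 4.89.

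Other chemokines gave no call under 4OI. Ccl22, a chemokine of activated myeloid cells, was at 0.147, 0.129 and 0.188 CPM under 4OI alone and at 0, 0 and 0.146 CPM in Tat-4OI, while Tat alone brought it to 8.77, 4.83 and 5.11 CPM. Its log2 changes were -0.26 under 4OI (limma FDR 0.871) and 3.51 without it, and the difference of -3.77 had a limma FDR of 0.0782 in the 21 libraries and of 0.00514 in all 48. Ccl3 was at 2.76, 8.37 and 2.77 CPM and at 2.46, 6.32 and 3.09 CPM in Tat-4OI, whereas Tat alone brought it to 23.4, 20 and 6.85 CPM. In both 4OI groups Ccl3 was highest in replicate 2, the library with the highest myeloid sum, and its value under 4OI of -0.13 turned to 0.35 without 4OI replicate 2. Cxcl6 gave 3.66 under 4OI with a wide error (SE 1.14, limma FDR 0.108). Ccl2 was lost as a call without Tat-4OI replicate 2 (limma FDR 0.0568), whereas the calls of Cxcl9, Ccl5, Cxcl1, Ccl20, Ccl7 and Cxcl13 were kept without each library.

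**Figure D2:**
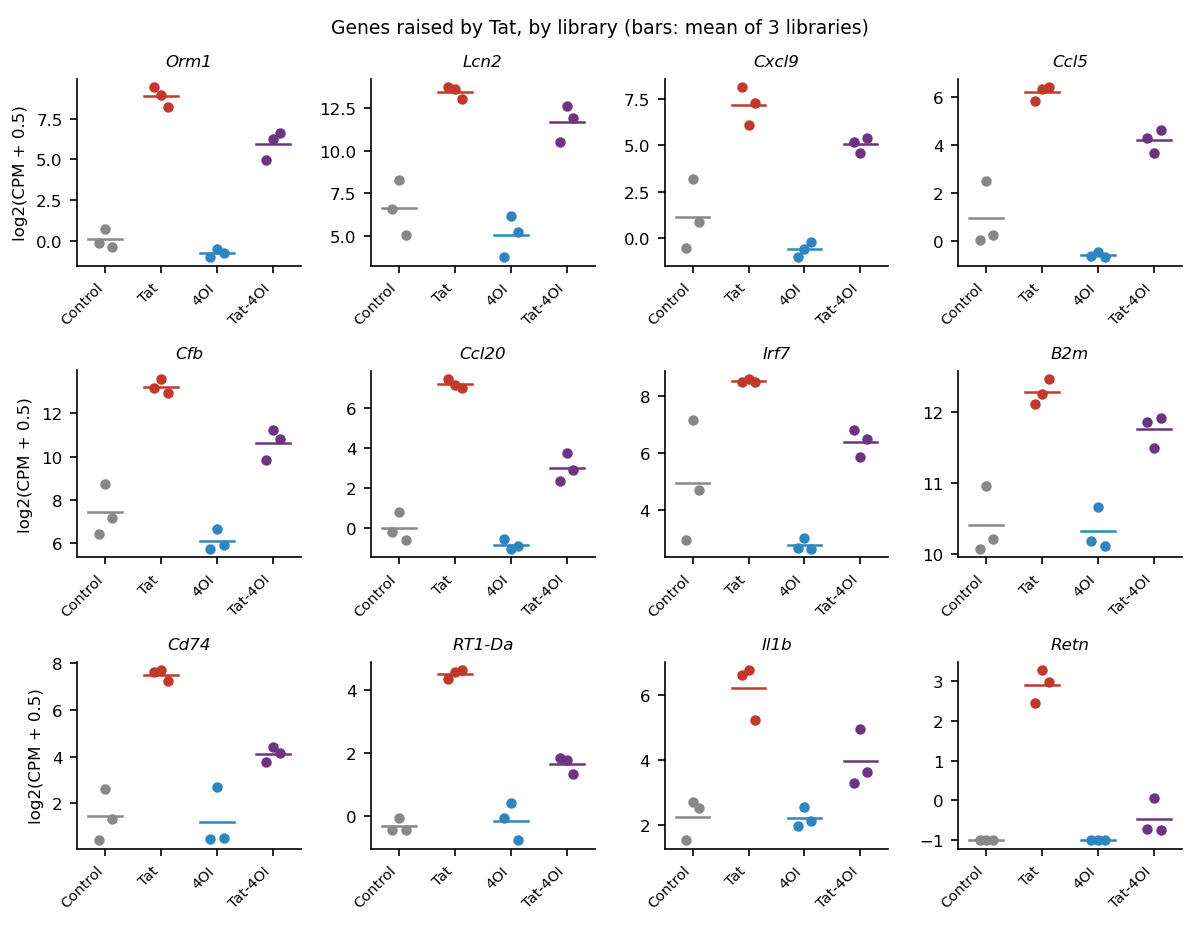
Level of 12 genes, as log2(CPM + 0.5) on a scale of its own for each gene, in the 3 libraries of Control (grey), Tat (red), 4OI (blue) and Tat-4OI (purple), where points are libraries and bars are means of 3. The Tat-4OI points lie above all 4OI points and below all Tat points for each of the 12 genes, although for Il1b and Retn the difference from 4OI did not pass the test.

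Among interleukins and other cytokines 1 of the 17 tested rose under 4OI (Il1rn), with a list median of 0.23, whereas 11 rose without 4OI, with a median of 1.45. Il1rn, the antagonist of the interleukin-1 receptor, was at 1.55, 1.9 and 0.834 CPM under 4OI alone and at 7.65, 26.1 and 11.9 CPM in Tat-4OI, a log2 rise of 2.89 (SE 0.62, limma FDR 0.0192). Il1b itself was at 3.42, 5.35 and 3.79 CPM and at 9.31, 30.6 and 11.8 CPM with Tat. The groups did not overlap, yet the difference of 1.75 was not called (SE 0.63, limma FDR 0.164). Without 4OI, Il1b reached 98.4, 108 and 37 CPM, a difference of 3.96. Il1a gave 0.69 (limma FDR 0.582) and Il6 gave 0.99 (limma FDR 0.471) under 4OI, with Il6 at no more than 3.44 CPM in these 6 libraries. Csf1, a growth factor of microglia, gave 1.03 (limma FDR 0.158). Tnf was below the minimum level, with no library above 0.0227 CPM. The call of Il1rn was lost when any 1 of 4 libraries was left out, at a limma FDR of up to 0.129 (without Tat-4OI replicate 2).

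Of 19 subunits and feedback inhibitors of NF-κB, many of which NF-κB itself switches on, 5 rose under 4OI (Nfkbiz, Bcl3, Birc3, Zc3h12a and Nfkbia), with a median log2 change of 0.63, against 16 and a median of 1.79 without 4OI. Nfkbiz, an atypical IκB protein needed for Lcn2 induction, was at 7.62, 8.49 and 9.01 CPM and rose to 27.8, 82.5 and 47.7 CPM (log2 2.45, SE 0.39, limma FDR 0.00384). Bcl3, a related nuclear coactivator, rose from 4.01, 4.61 and 3.96 CPM to 12.6, 27.2 and 17.6 CPM (log2 2.00, SE 0.31, limma FDR 0.00299). Birc3, Zc3h12a and Nfkbia, all of them brakes or survival factors of the pathway, rose by 2.89, 1.75 and 1.46. Tnip3 gave 0.59 under 4OI (limma FDR 0.668) and 3.93 without it. The calls of Birc3, Zc3h12a and Nfkbia were lost without single libraries, at limma FDR of up to 0.105, 0.123 and 0.249, each without Tat-4OI replicate 2. Among 18 receptors and adaptors for microbial patterns 0 rose under 4OI, and 6 without.

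Promoters of the genes with the largest rises are shown to let the recognition sequences be compared with the values. They are the 250 bases before the annotated start in RefSeq (build GRCr8), which was available for 7 of the 10 genes with the largest rises. Capitals mark matches on either strand to an NF-κB motif (GGGAA and CC with 3 bases of any kind between them, in 5.56% of the 27457 genes with a promoter entry), to an IRF motif (GAAA and GAAA with 2 bases between, in 3.61%) or to the Y box of class II genes (CTGATTGG, in 3.44%), 5′ to 3′ on the strand of the gene. A match is a description of the letters, and binding was not measured.
Orm1, chr5:81788259-81788508, plus strand: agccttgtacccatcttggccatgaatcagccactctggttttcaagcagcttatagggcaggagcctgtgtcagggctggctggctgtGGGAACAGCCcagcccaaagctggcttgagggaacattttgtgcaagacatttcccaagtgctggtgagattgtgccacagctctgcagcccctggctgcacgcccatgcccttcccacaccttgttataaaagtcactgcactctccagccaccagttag
Lcn2, chr3:36081781-36082030, minus strand: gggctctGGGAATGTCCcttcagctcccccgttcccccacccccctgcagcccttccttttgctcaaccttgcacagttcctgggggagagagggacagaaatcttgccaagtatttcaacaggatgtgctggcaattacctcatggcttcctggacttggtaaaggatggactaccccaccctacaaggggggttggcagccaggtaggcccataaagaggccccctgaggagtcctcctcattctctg
Cxcl9, chr14:16006916-16007165, plus strand: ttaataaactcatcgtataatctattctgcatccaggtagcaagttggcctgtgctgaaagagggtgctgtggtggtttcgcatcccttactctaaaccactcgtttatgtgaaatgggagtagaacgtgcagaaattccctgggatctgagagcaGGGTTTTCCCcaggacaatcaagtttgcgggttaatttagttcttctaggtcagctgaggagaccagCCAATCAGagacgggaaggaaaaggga
Cxcl1, chr14:17479322-17479571, minus strand: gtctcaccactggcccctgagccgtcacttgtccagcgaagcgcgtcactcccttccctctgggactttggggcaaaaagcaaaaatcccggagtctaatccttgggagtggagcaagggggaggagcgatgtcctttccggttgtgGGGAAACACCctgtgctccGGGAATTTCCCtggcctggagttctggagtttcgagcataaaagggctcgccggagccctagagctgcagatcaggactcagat
Ccl20, chr9:91836909-91837158, plus strand: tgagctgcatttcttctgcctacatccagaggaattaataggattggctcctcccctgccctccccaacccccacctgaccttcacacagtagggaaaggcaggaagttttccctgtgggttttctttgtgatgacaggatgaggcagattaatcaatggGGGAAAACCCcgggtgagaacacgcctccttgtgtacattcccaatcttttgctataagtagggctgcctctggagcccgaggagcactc
Irf7, chr1:205800024-205800273, minus strand: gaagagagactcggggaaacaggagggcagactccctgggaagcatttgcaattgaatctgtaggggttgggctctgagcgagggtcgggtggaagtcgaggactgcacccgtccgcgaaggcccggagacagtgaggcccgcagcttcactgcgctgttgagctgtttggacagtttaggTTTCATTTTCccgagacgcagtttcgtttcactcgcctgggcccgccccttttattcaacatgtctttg
Ifit3, chr1:241527076-241527325, plus strand: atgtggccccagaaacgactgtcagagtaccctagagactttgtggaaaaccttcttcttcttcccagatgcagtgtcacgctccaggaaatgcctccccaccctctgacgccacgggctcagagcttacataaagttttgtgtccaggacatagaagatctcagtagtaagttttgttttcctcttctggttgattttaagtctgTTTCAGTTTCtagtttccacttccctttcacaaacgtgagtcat

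An NF-κB match stood before 5 of the 7 genes (Orm1, Lcn2, Cxcl9, Cxcl1 and Ccl20) and an IRF match before Irf7 and Ifit3. Cxcl9 also held a Y box. Among the 10 genes with the largest falls, all with an entry, 0 had an NF-κB match and 1 had an IRF match (Selenop).

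Complement and its regulators were among the abundant rises. Of 18 tested, 3 rose under 4OI (Cfb, Serping1 and C3) and 1 fell (Cfd), with a median of 0.36. Without 4OI 7 rose and 2 fell. Cfb, complement factor B of the alternative pathway, was at 53.2, 100 and 60.5 CPM under 4OI alone and at 910, 2392 and 1800 CPM in Tat-4OI (log2 4.51, SE 0.70, limma FDR 0.00296). With Tat alone it reached 9233, 12395 and 7843 CPM, above each Tat-4OI library. Serping1, the C1 inhibitor, rose from 98.7, 257 and 101 CPM to 699, 1487 and 1045 CPM (log2 2.90, SE 0.50, limma FDR 0.00555). C3, the central component, rose by 2.53 under 4OI (limma FDR 0.0338), a call lost when any 1 of 4 libraries was left out at a limma FDR of up to 0.194. Cfd, the protease that cuts factor B, went the other way, from 37.6, 51.1 and 39.4 CPM to 9.15, 20.5 and 4.23 CPM (log2 -2.12, SE 0.45, limma FDR 0.018). Its fall was -1.60 without 4OI, and the call was lost when any 1 of 5 libraries was left out at a limma FDR of up to 0.0919.

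The antigen presentation genes had positive values in both classes. All 17 genes of class I, its peptide loading and the immunoproteasome had positive values under 4OI and 5 of them passed the test, B2m, RT1-A1, RT1-A2, RT1-T24-4 and RT1-CE5, with a list median of 0.67 against 1.14 and 11 calls without 4OI. B2m, the invariant light chain, was at 1159, 1611 and 1104 CPM and rose to 3714, 2868 and 3847 CPM (log2 1.44, SE 0.25, limma FDR 0.00606), and its rise without 4OI was 1.86. RT1-A1, a class I heavy chain, went from 130, 260 and 133 CPM to 567, 507 and 635 CPM (log2 1.78, SE 0.37, limma FDR 0.0176). The RT1 heavy chains are near-identical copies, and since only uniquely mapped reads were counted, the split of reads between them is uncertain. The calls of the 4 RT1 genes were lost without single libraries, at limma FDR of up to 0.159 (RT1-T24-4), while that of B2m was kept.

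All 7 class II genes (their coactivator Ciita included) also had positive values under 4OI, with a median of 1.12, but 2 were called, Cd74 and RT1-Da, against 7 of 7 and a median of 4.02 without 4OI. Cd74, the invariant chain, was at 0.884, 5.95 and 0.917 CPM under 4OI alone and at 13.1, 21 and 17.2 CPM in Tat-4OI, while Tat alone brought it to 193, 205 and 147 CPM. Its rises were 2.89 (SE 0.67, limma FDR 0.0286) and 6.03. RT1-Da was at 0.442, 0.819 and 0.0834 CPM and rose to 3.05, 2.96 and 1.99 CPM (log2 1.80, SE 0.33, limma FDR 0.00738). The class II sum was 21.0 to 30.2 CPM in Tat-4OI and 228 to 284 CPM with Tat alone. The 16 myeloid markers were lower as well, at 806 to 1831 CPM in Tat-4OI against 2242 to 3730 CPM with Tat alone, and their part in the class II values was not tested. Without 4OI replicate 3 the call of RT1-Da was lost (limma FDR 0.0528), and that of Cd74 was lost when any 1 of 5 libraries was left out at a limma FDR of up to 0.16.

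All 29 interferon-stimulated genes tested had positive values under 4OI, as did 8017 of all 15609 genes tested. For 24 of the 29 the Tat-4OI libraries lay above all 4OI libraries, against 15.8% of all genes. The median was 1.14, against 1.09 without 4OI, a value that includes Control replicate 2. The list sum was 589 to 724 CPM under 4OI alone and 1122 to 1496 CPM in Tat-4OI. In Control it was 728, 4587 and 1505 CPM, and with Tat alone 3345 to 4236 CPM. Of the 29 genes, 2 were called under 4OI (Irf7 and Ifit3) and 7 without. Irf7, the interferon regulatory factor that amplifies the response, was at 5.89, 7.74 and 5.82 CPM and rose to 113, 57.8 and 91.2 CPM (log2 3.61, SE 0.71, limma FDR 0.0123). Ifit3, an antiviral RNA-binding protein, went from 0.295, 0.345 and 0.417 CPM to 8.88, 8.98 and 14.2 CPM (log2 3.68, SE 0.91, limma FDR 0.0417). The corresponding rises without 4OI, 3.59 and 3.00, rest on Control libraries of which replicate 2 held 143 CPM of Irf7 and 57.9 CPM of Ifit3, against no more than 25.9 and 9.49 CPM in the others. Rsad2 gave 1.31 (limma FDR 0.53). Under 4OI the Irf7 call was lost when any 1 of 3 libraries was left out (limma FDR of up to 0.061) and the Ifit3 call when any 1 of the 6 was left out (up to 0.154).

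Among enzymes of the inflammatory response, 2 of 16 rose under 4OI (Sod2 and Gch1) and 11 without. Sod2, the mitochondrial superoxide dismutase, was at 194, 205 and 204 CPM under 4OI alone and at 970, 2483 and 1911 CPM in Tat-4OI (log2 3.05, SE 0.39, limma FDR 0.000784), against a rise of 4.22 without the compound. Gch1, which makes the cofactor of nitric oxide synthases, rose by 1.56 (SE 0.39, limma FDR 0.0436), a call lost when any 1 of 5 libraries was left out at a limma FDR of up to 0.244. Acod1, the enzyme that makes itaconate, was at 0.11, 0.0862 and 0 CPM under 4OI alone and at 0.535, 3.39 and 1.7 CPM in Tat-4OI. The groups did not overlap, but the difference of 1.88 was not called (SE 0.85, limma FDR 0.291), and with Tat alone Acod1 reached 47.5, 92.2 and 8.75 CPM. Ptges, which makes prostaglandin E, was at 0.295, 0.604 and 0.208 CPM and at 1.18, 4.89 and 1.56 CPM with Tat, against 31.8, 54.2 and 43.8 CPM with Tat alone. Its changes were 1.63 (limma FDR 0.15) and 5.37, and the difference of -3.73 was not called in the 21 libraries (limma FDR 0.117) but was in all 48 (limma FDR 0.0176). Nos2 was below the minimum level, at no more than 0.236 CPM.

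Adhesion and matrix genes gave 2 rises and 1 fall among 17. Timp1, an inhibitor of matrix metalloproteases, rose from 32.6, 29.8 and 36.6 CPM to 103, 214 and 175 CPM (log2 2.24, SE 0.25, limma FDR 0.000222), against 2.76 without 4OI. Vcam1, which binds leukocytes, went from 80.8, 132 and 82.3 CPM to 233, 622 and 411 CPM (log2 2.02, limma FDR 0.0294), and its rise without 4OI was 2.03. Timp3 fell by 0.67. The calls of Vcam1 and Timp3 were lost without single libraries, at limma FDR of up to 0.185 and 0.156.

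**Figure D3:**
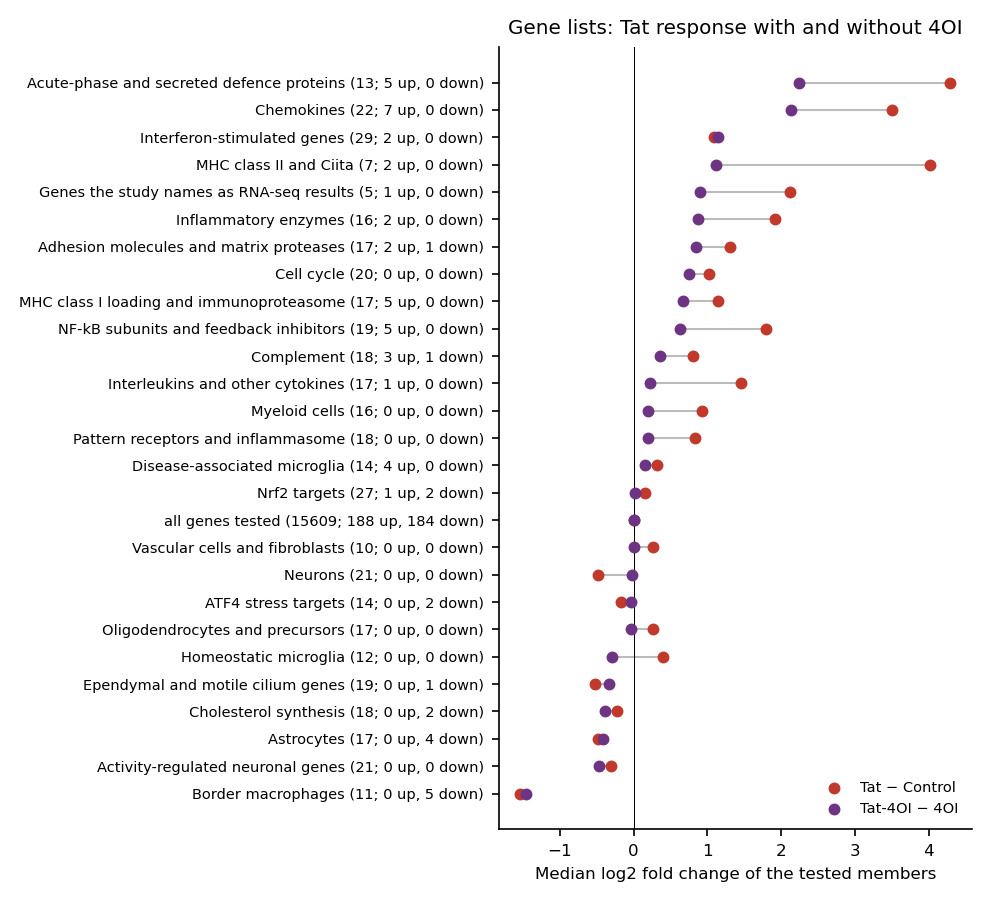
Median log2 difference of each gene list for Tat against Control (red) and for Tat-4OI against 4OI (purple), with the number of genes tested and called under 4OI beside each name. Acute-phase genes, chemokines, cytokines and class II genes lie farther from 0 without 4OI. For interferon-stimulated genes (1.14 under 4OI and 1.09 without it) and border macrophage markers (-1.46 and -1.54) the medians are close. The interferon value without 4OI includes Control replicate 2, with a list sum of 4587 CPM against 728 and 1505 CPM in the other Control libraries. For border macrophage markers the gene-by-gene differences had a median of -0.70, with 8 of 11 lower and 3 higher under 4OI.

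Without replicate 2 of both 4OI groups, the libraries with the highest myeloid sums, 72 genes were called in all, and fewer list members. Chemokines then had 4 rises with a median of 1.67, acute-phase proteins 3 with 1.86, class I genes 2 with 0.78, complement 2 with 0.28, and NF-κB subunits and inhibitors, inflammatory enzymes, class II genes and adhesion genes 1 each. Of the interferon-stimulated genes and cytokines 0 were called, with medians of 1.17 and 0.20. Border macrophage markers kept 1 fall with a median of -1.95, and the astrocyte and ependymal markers kept 0. Complement, Nrf2 targets, ATF4 targets and cholesterol synthesis genes had 1 fall each.

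The falls were led by markers of border macrophages, the resident macrophages of the meninges and vessels. Of 11 tested, 5 fell under 4OI (Cd163, Cd209f, Lyve1, Stab1 and Pf4) and 0 rose, with a median of -1.46, and 4 fell without 4OI, with a median of -1.54. Gene by gene, the difference between the responses had a median of -0.70, with 8 members lower and 3 higher under 4OI and 0 called. Cd163, the scavenger receptor for haemoglobin, was at 24.6, 5.43 and 25.9 CPM under 4OI alone and at 0.428, 1.67 and 0.487 CPM in Tat-4OI. The library with the lowest 4OI value was replicate 2, and the groups did not overlap. The log2 fall was -3.65 (SE 0.58, limma FDR 0.00336), and it was -2.86 without 4OI, from 63, 40.4 and 40.8 CPM to 8.11, 2.21 and 11.5 CPM. Lyve1, a hyaluronan receptor, fell from 54.8, 60.2 and 69 CPM to 12.5, 24.1 and 4.52 CPM (log2 -2.40, SE 0.54, limma FDR 0.0255). Stab1, a scavenger receptor, fell from 474, 537 and 573 CPM to 92, 195 and 55.5 CPM (log2 -2.39, SE 0.59, limma FDR 0.0425). The C-type lectin Cd209f was at 10.8, 4.92 and 18.2 CPM and at 0.268, 0.968 and 0.0973 CPM with Tat (log2 -3.57, SE 0.89, limma FDR 0.0433).

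The summed level of the border macrophage list was 823 to 966 CPM under 4OI alone and 128 to 465 CPM in Tat-4OI, without overlap, whereas the myeloid sum overlapped between these groups. Ms4a7 gave -0.61 under 4OI (limma FDR 0.724) and rose without it (1.91). The general myeloid list had 0 calls in 16 genes under 4OI and a median of 0.20, and the homeostatic microglia list 0 calls in 12 genes. Itgam, the integrin of myeloid cells, gave 1.25 (limma FDR 0.193), Aif1 gave 0.77 (limma FDR 0.663) and Csf1r gave -0.92 (limma FDR 0.379). The call of Cd163 was kept without each library. The calls of Lyve1, Stab1, Pf4 and Cd209f were lost when any 1 of 5 libraries was left out, at limma FDR of up to 0.129, 0.179, 0.141 and 0.196.

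Of 14 genes of disease-associated microglia, 4 rose under 4OI (Clec7a, Lgals3, Itgax and Cst7) and 4 without it. The list median under 4OI was 0.16, and 1 member was called without replicate 2 of both groups. Clec7a, the receptor dectin-1, was at 1.44, 1.25 and 1.29 CPM and rose to 6.31, 9.62 and 7.01 CPM (log2 2.14, SE 0.23, limma FDR 0.000164), against 2.87 without 4OI. Lgals3, galectin 3, was at 73.8, 72.9 and 74.4 CPM under 4OI alone and at 142, 129 and 202 CPM in Tat-4OI. The 3 4OI libraries were almost equal, and the rise was 1.06 (SE 0.22, limma FDR 0.0156). Without 4OI Lgals3 gave 0.33 (limma FDR 0.307), and the difference of 0.73 was not called (limma FDR 0.542). Itgax and Cst7 rose by 2.00 and 1.86. The calls of Lgals3, Itgax and Cst7 were lost without single libraries at limma FDR of up to 0.0853, 0.209 and 0.179, whereas Clec7a stayed called.

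**Figure D4:**
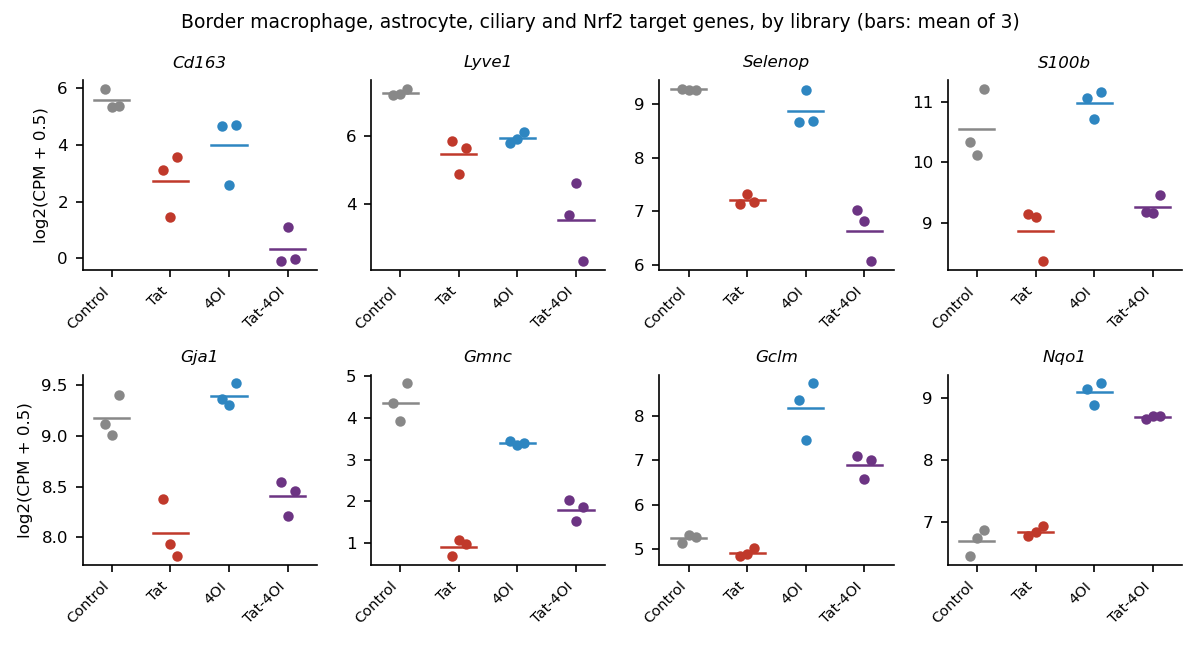
Level of 8 genes, as log2(CPM + 0.5) on a scale of its own for each gene, in the 3 libraries of Control (grey), Tat (red), 4OI (blue) and Tat-4OI (purple), where points are libraries and bars are means of 3. The Tat-4OI points lie below all 4OI points for each of the 8 genes, and for Gclm and Nqo1 (not called) they lie above all Control and Tat points.

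Other large falls came from genes outside the lists. Selenop, the selenium carrier, was at 405, 611 and 408 CPM under 4OI alone and at 129, 112 and 66.7 CPM in Tat-4OI (log2 -2.23, SE 0.31, limma FDR 0.00132), close to its fall of -2.06 without 4OI. F2rl3, a thrombin receptor, fell from 4.12, 5.61 and 3.88 CPM to 1.02, 0.591 and 0.341 CPM (log2 -2.16, SE 0.35, limma FDR 0.00427). Tlr5, the flagellin receptor, fell from 31.3, 31 and 46.4 CPM to 8.24, 15.2 and 3.31 CPM (log2 -2.16, SE 0.47, limma FDR 0.0206). Both receptors sit in the cell membrane. The potassium channel subunit Kcne5 was at 32.5, 17.6 and 33.2 CPM and at 4.76, 4.09 and 6.42 CPM with Tat (log2 -2.31, SE 0.55, limma FDR 0.0348), and the phenol sulfotransferase Sult1a1 at 25.7, 30 and 31.9 CPM and at 5.06, 6.51 and 6.01 CPM (log2 -2.22, SE 0.46, limma FDR 0.0165). The calls of Selenop and F2rl3 were kept without each library, and those of Tlr5, Kcne5 and Sult1a1 were lost without single libraries at limma FDR of up to 0.113, 0.16 and 0.0808.

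Among 17 astrocyte markers 4 fell under 4OI (S100b, Gja1, Ntsr2 and Mlc1) and 0 rose, with a median of -0.42, and 6 fell without 4OI, with a median of -0.48. S100b, a calcium-binding protein, was at 2143, 1677 and 2294 CPM and fell to 581, 569 and 706 CPM (log2 -1.71, SE 0.29, limma FDR 0.00555), against -1.69 without 4OI. Gja1, the gap junction protein connexin 43, fell from 658, 630 and 732 CPM to 374, 296 and 350 CPM (log2 -0.99, SE 0.16, limma FDR 0.00479). Ntsr2, a neurotensin receptor, fell from 123, 180 and 126 CPM to 59.4, 31.3 and 51.4 CPM (log2 -1.61, SE 0.35, limma FDR 0.0206). Mlc1, a membrane protein of astrocyte endfeet, fell by 0.94. Gfap gave 0.10 (limma FDR 0.91), at 4528, 3401 and 4625 CPM and at 4139, 3970 and 5297 CPM with Tat, and Acsbg1 gave -0.42 (limma FDR 0.384). Gmnc, a regulator of multiciliated cells, fell from 10.4, 9.62 and 9.96 CPM to 3.59, 2.37 and 3.11 CPM (log2 -1.59, SE 0.29, limma FDR 0.00762), and it was the single call among 19 ependymal genes. The calls of Ntsr2, Mlc1 and Gmnc were lost without single libraries at limma FDR of up to 0.133, 0.0981 and 0.0607, and those of S100b and Gja1 were kept.

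Neuronal genes gave no call. Of 21 tested, 0 were called in either response at an FDR under 0.05 in limma, with medians of -0.02 under 4OI and -0.49 without it, and all 21 had negative values without 4OI against 12 of 21 under it. Map2 was at 662, 526 and 689 CPM under 4OI alone and at 591, 535 and 578 CPM in Tat-4OI, a difference of -0.13 (limma FDR 0.879). Syt1, a synaptic calcium sensor, and Stmn2, a growth cone protein, gave 0.41 (limma FDR 0.634) and 0.34 (limma FDR 0.513). The summed level of the list was 5127 to 5705 CPM under 4OI alone and 5115 to 6119 CPM in Tat-4OI. Of the 21 activity-regulated genes and the 17 oligodendrocyte genes 0 were called under 4OI, with medians of -0.47 and -0.04, although the oligodendrocyte median was 1.35 without replicate 2 of both groups. Of the 20 cell cycle genes 0 were called, with a median of 0.76, and of the 10 vascular genes 0.

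The targets of Nrf2 were examined because 4OI is known to raise them. Of 27 tested, 1 rose with Tat under 4OI (Akr1b8) and 2 fell (Gclm and Gclc), with a median of 0.02. Without 4OI 8 rose and 4 fell. Gclm, the regulatory subunit of the enzyme that starts glutathione synthesis, was at 326, 175 and 424 CPM under 4OI alone and at 135, 95.4 and 127 CPM in Tat-4OI, against 34.8, 39.2 and 38.1 CPM in Control and 28.2, 29.2 and 32 CPM with Tat alone. The 4 groups did not overlap, and Tat-4OI lay between 4OI and the cultures without the compound. The log2 fall was -1.29 under 4OI (SE 0.23, limma FDR 0.00609) and -0.32 without it (limma FDR 0.347), and the difference of -0.97 was not called in the 21 libraries (limma FDR 0.384) but was in all 48 (limma FDR 0.0433). Gclc, the catalytic subunit, fell from 262, 270 and 270 CPM to 192, 173 and 182 CPM (log2 -0.55, SE 0.11, limma FDR 0.0146), and its fall without 4OI was -0.89.

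Nqo1, a quinone reductase, was at 568, 476 and 606 CPM under 4OI alone and at 407, 421 and 421 CPM in Tat-4OI, and Control held 87.1, 106 and 116 CPM. Its groups did not overlap, but the change of -0.40 was not called (SE 0.16, limma FDR 0.217). Gstp1 gave -0.32 (limma FDR 0.746). Akr1b8, an aldo-keto reductase, went from 1.84, 1.42 and 2.63 CPM to 8.03, 30.9 and 8.03 CPM (log2 2.45, SE 0.54, limma FDR 0.0233), and gave 0.21 without 4OI. The call of Akr1b8 was lost when any 1 of 4 libraries was left out, at a limma FDR of up to 0.149 without Tat-4OI replicate 2, which held its highest value, and that of Gclc was lost when any 1 of 4 was left out at up to 0.0887.

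Of 14 ATF4 targets 2 fell under 4OI, both of them enzymes of serine synthesis, and 7 of the 14 had positive values, with a median of -0.04. Psat1 was at 253, 210 and 252 CPM and at 128, 138 and 147 CPM with Tat (log2 -0.78, limma FDR 0.0152), and Phgdh at 338, 273 and 333 CPM and at 203, 165 and 207 CPM (log2 -0.71, limma FDR 0.0118). Of 18 genes of cholesterol synthesis 17 had negative values and 2 fell, with a median of -0.38. Cyp51 fell from 514, 333 and 491 CPM to 287, 256 and 270 CPM (log2 -0.69, limma FDR 0.0417), and Idi1 from 92.5, 80 and 90.9 CPM to 56.7, 56.7 and 59 CPM (log2 -0.61, limma FDR 0.0294). Each of these 4 calls was lost without single libraries, at limma FDR of up to 0.0875 for Phgdh and 0.214 for Cyp51.

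Of 5 genes of purine receptors, cyclic nucleotide breakdown and the cytoskeleton that the study chose on these samples, all 5 rose without 4OI and 1 under it, which is not independent evidence of their direction. P2ry2, a nucleotide receptor, was at 0.884, 2.24 and 1.21 CPM and at 3.16, 5.91 and 3.6 CPM in Tat-4OI (log2 1.30, SE 0.33, limma FDR 0.049), and it reached 12.3, 14.9 and 10.8 CPM with Tat alone. P2ry6, P2rx4, Pde4b and Vasp gave 1.11, 0.53, 0.68 and 0.89 under 4OI (limma FDR 0.388, 0.368, 0.198 and 0.296), and 2.63, 1.23, 1.69 and 2.12 without it. The call of P2ry2 was lost when any 1 of 5 libraries was left out, at a limma FDR of up to 0.265.

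The difference between the responses was tested gene by gene as an interaction. It was called for 5 of 15609 genes (0.032%), all with a lower value under 4OI, and 1362 genes had an unadjusted p under 0.05, of which 950 were lower and 412 higher. In the fit to all 48 libraries it was called for 79 genes, 71 lower and 8 higher under 4OI. The 5 were Retn, RT1-Db1, RT1-Da, LOC691143 and Tectb. Retn, which codes for the secreted protein resistin, had 0 reads in all 4OI and Control libraries. It had 2, 10 and 2 reads in Tat-4OI (0.107, 0.538 and 0.0973 CPM) and 99, 200 and 157 reads with Tat alone (5.02, 9.2 and 7.42 CPM). Against a floor of 3 reads per library, Tat raised Retn at least 54.3-fold without 4OI. The fitted difference of -3.38 (SE 0.37, limma FDR 0.00121) depends on the pseudocount and was called under each alternative and without each library. The count of 5 was 2 to 7 without single libraries, and 4 without Control replicate 2. The myeloid sum was 806 to 1831 CPM in Tat-4OI and 2242 to 3730 CPM with Tat alone, and its part in the Retn values was not tested.

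The class II chains RT1-Da and RT1-Db1 gave differences of -3.06 (SE 0.47) and -3.29 (SE 0.51), both at a limma FDR of 0.0235. RT1-Db1 was at 0.35, 0.949 and 0.125 CPM under 4OI alone and at 1.07, 1.69 and 1.8 CPM in Tat-4OI, against 17.3, 22.6 and 21.7 CPM with Tat alone. Its change under 4OI of 1.12 was not called (limma FDR 0.116), although the groups did not overlap. Tectb, a gene of the tectorial membrane, was at 1.98, 2.25 and 2.79 CPM with Tat alone and at no more than 0.699 CPM in the other 3 groups, with a difference of -1.69 (SE 0.28, limma FDR 0.0379). LOC691143, a locus with no gene name, gave -2.17 (limma FDR 0.00772). Leaving out single libraries removed the calls of RT1-Da and RT1-Db1 in 8 of 12 cases, at limma FDR of up to 0.116, and that of Tectb in 9 of 12, at up to 0.185. Promoters of Retn and of the class II chains are shown with the same marks.
Retn, chr12:6508524-6508773, plus strand: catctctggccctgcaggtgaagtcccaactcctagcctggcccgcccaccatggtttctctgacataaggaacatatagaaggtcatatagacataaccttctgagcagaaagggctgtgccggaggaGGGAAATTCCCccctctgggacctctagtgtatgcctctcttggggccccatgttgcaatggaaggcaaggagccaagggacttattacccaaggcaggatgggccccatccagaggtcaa
RT1-Da, chr20:4515165-4515414, plus strand: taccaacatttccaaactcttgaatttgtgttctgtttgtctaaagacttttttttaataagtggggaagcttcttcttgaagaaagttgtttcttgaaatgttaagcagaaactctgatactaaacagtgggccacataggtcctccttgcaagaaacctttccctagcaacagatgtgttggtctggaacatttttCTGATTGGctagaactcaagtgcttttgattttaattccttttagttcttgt
RT1-Db1, chr20:4560163-4560412, minus strand: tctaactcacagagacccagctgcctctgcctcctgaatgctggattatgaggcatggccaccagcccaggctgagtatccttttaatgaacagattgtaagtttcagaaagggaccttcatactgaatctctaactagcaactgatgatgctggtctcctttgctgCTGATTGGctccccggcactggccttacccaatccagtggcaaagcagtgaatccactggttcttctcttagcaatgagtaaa

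RT1-Da and RT1-Db1 each held a Y box, and Retn and Tectb an NF-κB match.

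Cultures given Tat with Amlexanox (25 µM), an inhibitor of the kinases TBK1 and IKKε, Tazemetostat (3 µM), an inhibitor of the methyltransferase EZH2, or Senicapoc (1 µM), a blocker of a calcium-activated potassium channel, let the response under 4OI be set beside that under other compounds. The compounds are not structural relatives and their doses differ. In a joint fit of all 48 libraries, with 15890 genes tested, Tat changed 823 genes under 4OI (5.18%), 3382 without a compound (21.3%), 6290 under Amlexanox (39.6%), 2554 under Tazemetostat (16.1%) and 2540 under Senicapoc (16%). The SE of a gene is the same in each response by construction, since 1 spread per gene was estimated over all groups (median 0.168). The spread of the log2 changes over genes was smallest under 4OI, with an SD of 0.411, against 0.537 to 0.652 under the others.

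**Figure D5:**
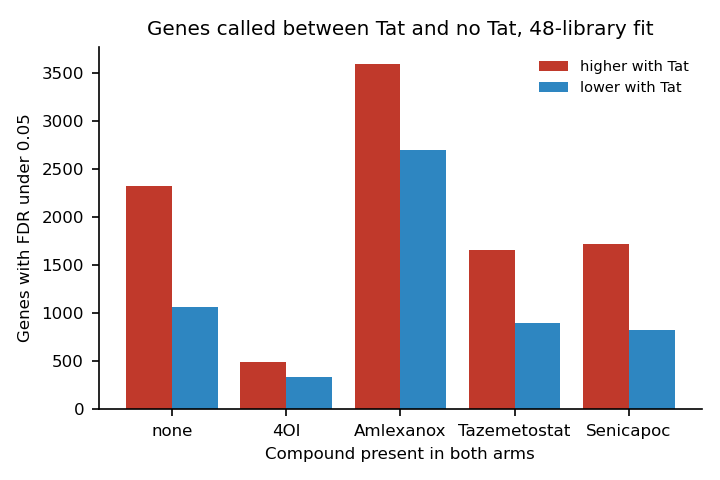
Number of genes higher (red) and lower (blue) with Tat in the fit of 48 libraries, for cultures without a compound and with 4OI, Amlexanox, Tazemetostat or Senicapoc in both arms. Under 4OI 490 genes were higher (3.08%) and 333 lower (2.1%), the fewest of the 5 responses.

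Differences between the responses were tested for 3 pairs of compounds. The response under 4OI differed from that under Amlexanox for 1719 genes (10.8%), 1096 of them with a lower (6.9%) and 623 with a higher value (3.92%) under 4OI. For 903 of these genes Tat gave a rise under Amlexanox that was smaller under 4OI, and for 522 a fall that was smaller. After quantile normalization the split was 46.5% higher, against 36.2% in the main fit. The count moved with single libraries, from 37 without Amlexanox replicate 3 and 151 without Tat-Amlexanox replicate 1 to 2288 without Tat-Amlexanox replicate 3 and 3435 without Amlexanox replicate 1, and was 497 to 1336 without each of the other 8. Against Tazemetostat 13 genes differed (0.0818%), 12 of them lower (0.0755%) and 1 higher under 4OI (0.00629%), with 976 at an unadjusted p under 0.05, and against Senicapoc 9 genes (0.0566%), with 1238. Without single libraries these counts were 2 to 13 and 2 to 13.

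The differences from Tazemetostat and Senicapoc had 4 genes in common, which are 30.8% of the 13 and 44.4% of the 9. They were Cxcl13, Retn, LOC691143 and Tnfsf10, all with lower values under 4OI. Cxcl13, the B cell chemokine, was at 0.0736, 0.561 and 0 CPM under 4OI alone and at 9.52, 2.47 and 4.48 CPM in Tat-4OI. Its rise of 2.98 in the joint fit (limma FDR 0.000525) stood against 6.77 under Tazemetostat, 7.18 under Senicapoc and 6.88 without a compound, and the differences were -3.79 (SE 0.75, limma FDR 0.0303) and -4.20 (SE 0.75, limma FDR 0.0129). Retn, with a value of 0.53 under 4OI, differed by -2.72 from Tazemetostat (limma FDR 8.09e-05) and by -2.96 from Senicapoc (limma FDR 5.57e-06). Tnfsf10, the death ligand TRAIL, gave -0.45 under 4OI, and 1.22 and 1.28 under Tazemetostat and Senicapoc. Gclm was among the 13 genes that differed from Tazemetostat, with -1.29 under 4OI against -0.09 (difference -1.20, SE 0.23, limma FDR 0.0288). S100a4, a calcium-binding protein, was the single gene with a higher value under 4OI than under Tazemetostat, by 1.62 (SE 0.34, limma FDR 0.0445).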

How the data were processed

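RNA of primary rat cortical cultures was measured in 48 libraries, 3 per group, and the groups and replicate numbers are those of the labels. The authors made strand-specific libraries of polyA RNA, aligned paired reads with STAR, counted those mapped uniquely to each gene with featureCounts and scaled the counts by TMM in edgeR. The signal values the authors deposited are such CPM, 1 per gene and library. The rat build is Rnor_6.0 in the study's methods, whereas the submitters' processing notes list mRatBN7.2 and hg38, with STAR 2.7.2, so gene positions in the files' build are not given. Another 180 columns hold the authors' own fold changes, p-values and FDR values and were not used. Of the low values above 0, the only ones checked, 85.0 to 86.2% were whole reads in the 6 libraries (tolerance 0.02 read), so count models were not run. The size of 1 read was itself estimated, so the check does not settle whether the values are scaled counts.

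Values were analysed as log2(CPM + 0.5), keeping genes that reached 0.5 CPM in 3 or more libraries, using lmFit and the trended eBayes of limma 3.58.1 in R 4.3.3 and a Benjamini-Hochberg FDR under 0.05. Fold changes are on this scale and understate the change of low genes. The comparison with and without 4OI used 1 mean per group in the 21 libraries of the study's 7 groups (15609 of 30211 genes), and the other compounds all 48 libraries (15890 genes), whose values for the difference with and without 4OI are given where they change a call named. An exact permutation test of 3 against 3 libraries cannot give a p under 0.1. The scripts were tested on simulated data. The members and gene lists were chosen with earlier results of these data known. Genes were named by rule as the 10 largest rises and falls, the called differences, up to 4 members per list, and genes the study names, and those given values are part of the 115 that met the rule. Genes named beside a short count, and S100a4, Gclm and Tnfsf10 in the comparison of compounds, were chosen after their values were seen, as was leaving out replicate 2 of both 4OI groups. Promoters are those of RefSeq (GRCr8). Alternatives changed the pseudocount, filter, scaling, samples, trend, array weights, replicate block and libraries.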

Additional observations from a re-analysis of the deposited data

Results flagged for a closer look

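The Tat response differed between cultures with and without 4OI for 5 genes by the interaction test in limma (FDR under 0.05), all of them lower under 4OI. The differences were -3.38 for Retn, -3.29 for RT1-Db1, -3.06 for RT1-Da, -2.17 for LOC691143 and -1.69 for Tectb on the log2 scale. Between 4OI and Amlexanox the response differed for 1719 genes, between 4OI and Tazemetostat for 13, and between 4OI and Senicapoc for 9. The genes that differed from both of the last compounds were Cxcl13 (-3.79 and -4.20), Retn (-2.72 and -2.96), LOC691143 (-1.85 and -2.31) and Tnfsf10 (-1.67 and -1.73), and the first 3 of these also differed from the response without a compound in the same 48 libraries (Cxcl13 by -3.90, limma FDR 0.00632), though Cxcl13 did not in the 21 libraries (limma FDR 0.0782). Groups of 3 libraries are too small for a test of single outlying samples.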

How the results depend on the processing

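The 372 genes called for Tat-4OI against 4OI became 823 in the fit to all 48 libraries, 678 in a fit to the compared groups only, 3496 with array weights, 185 at a log2 change of at least 1, 72 without replicate 2 of both groups, and 104 to 345 without single libraries. The 5 genes of the difference with and without 4OI became 3 at a pseudocount of 0.1 CPM, 79 in the 48 libraries, 11 in the compared groups, 644 with array weights, 2 without replicate 2 of both 4OI groups, and 2 to 7 without single libraries. For Amlexanox the 1719 became 987 without a filter, 2618 in the compared groups, 6340 with array weights, 793 at a log2 change of at least 1, and 37 to 3435 without single libraries. For Tazemetostat the 13 became 6 at a pseudocount of 0.1 CPM, 8 without a filter, 1 in the compared groups, 709 with array weights, and 2 to 13 without single libraries, and for Senicapoc the 9 became 1989 with array weights and 2 to 13. The causes were not tested. Over all genes tested, deviations of same-numbered libraries correlated at 0.14, 0.08 and -0.02 in 4OI and Tat-4OI. The values were -0.10, 0.30 and -0.57 in Control and Tat, and 0.28, 0.47 and 0.34 in Control and 4OI. In Tat and Tat-4OI the correlations were -0.18, 0.59 and 0.15, highest for replicate 2. The myeloid sum was highest in replicate 2 of each of these groups, and a shared source was not tested. The labels give no shared source, and with the replicate block the counts were 765, 27, 2787, 31 and 22. Of 66 called genes given by name, 25 stayed called without each of the 6 libraries, 41 were lost without at least 1 (highest limma FDR 0.265), and 17 stayed called under every alternative run. Uncalled values that changed sign were those of Ccl3 (0.0187 with array weights, -0.48 to 0.35 without single libraries), Il6 (-0.00586 without replicate 2 of both groups) and Gfap (-0.0462 to 0.18 without single libraries). With 19 to 27.6 M reads, genes under 0.5 CPM rest on fewer than 13.6 reads, where counting error adds to the spread.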

Other observations

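Among the 99 genes called under 4OI and not without it, 91 had the same sign without 4OI, and for 0 of the 99 was the difference between the responses called. Of those chosen after their values were seen, Hspb1, a small heat shock protein, was at 68.6, 67.1 and 45.1 CPM under 4OI alone and at 137, 159 and 195 CPM in Tat-4OI, a log2 rise of 1.44 (SE 0.22, limma FDR 0.00275). Without 4OI it was at 98.2, 118 and 67.2 CPM in Control and at 102, 130 and 156 CPM with Tat (0.46, limma FDR 0.164), and the difference of 0.98 had a limma FDR of 0.365. The calcium-binding proteins S100a6 and S100a4 were among these 99 genes. S100a6 was at 6.96, 6.77 and 4.09 CPM and at 14.8, 21.2 and 25.5 CPM with Tat (1.71, limma FDR 0.0169), and S100a4 at 8.12, 6.09 and 8.21 CPM and at 13.1, 16.7 and 18 CPM (1.04, limma FDR 0.00603). For each of the 3 genes the mean of Control was above that of 4OI alone, a difference that was not tested. The Hspb1 libraries of Control and 4OI overlapped (67.2 CPM in Control replicate 3, 68.6 CPM in 4OI replicate 1). The Hspb1 and S100a4 calls were kept without each of the 6 libraries. The S100a6 call was lost when any 1 of 3 libraries was left out, at a limma FDR of up to 0.105.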
